A study of Caenorhabditis elegans with 4 samples.

Results

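The 574 LSY-2 binding regions on chromosome IV of the nematode Caenorhabditis elegans are described here, out of 3669 in the authors' combined peak list. They were chosen by chromosome name alone, and position, spacing, rank and recurrence played no part in the choice. The regions come from chromatin immunoprecipitation and sequencing (ChIP-seq) of embryos of the single strain OP367, grown at 20 °C as a mix of males and hermaphrodites. This strain has the unc-119(ed3) allele and carries wgIs367, a transgene made by bombardment that joins lsy-2::TY1 EGFP FLAG with a copy of unc-119. The study holds 2 LSY-2 GFP ChIP samples, precipitated with antibodies against GFP, and 2 input samples of total chromatin DNA from the same strain. All 4 samples thus carry the tagged transgene, and no strain without it and no value of the inputs was analysed here. The RefSeq gene table of assembly WBcel235 places lsy-2 on X and unc-119 on III, so neither gene of the transgene belongs to IV.

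LSY-2 is a transcription factor with zinc fingers of the Cys-His type, and is known from genetic work on the ASE taste neurons, in which it helps to set up the difference between the left and the right cell. The autosomes of this worm have gene-dense centres and repeat-rich arms with more recombination. Chromosome IV is also known for the genes of the 21U-RNAs, the piRNAs of the worm, which guard the germ line against transposons. Of 15363 piRNA genes in the RefSeq table, 14714 are on IV, or 95.8%, and they are known to fill broad domains of its left-central part and its right arm.

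Each region has a start, an end, a score and a numbered name in genome build WS220. The number was read as a rank, with 1 as the strongest, although neither the labels nor the headers call it one. The score reached its maximum of 3.80 in 490 of the 574 members and ordered few of them. The 84 members below the maximum had scores of 2.38 and higher, and none ranked better than 3153. Among them the score fell in steps as the number rose, but within a step it rose slightly. It went from 3.326 at number 3153 to 3.341 at 3269, and was 2.975 at 3281. Within such steps the score thus ran against the reading of the number as a rank. The whole list of each replicate, 30000 peaks long, held 5100 peaks on IV in replicate 1 and 5013 in replicate 2. Its first 3669 ranks, as many as the combined list is long, held 563 and 551 on IV. Read depth was not known, and the lists of 2 ChIP samples of 1 group allow no test across samples. Intervals given below are exact Clopper-Pearson 95% intervals, which treat peaks as independent and cover counting error only.

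The members covered 188 kb, or 1.08%, of a span of 17.4 Mb, the stretch from the first to the last base of IV in the 3 lists. They lay between IV 51238 and IV 17461594. The density was 32.9 regions per Mb, against 37.4 per Mb on the other 5 chromosomes together, and IV was 4th of 6, between II with 41.9 and X with 24.1 per Mb. In the first 3669 ranks of the replicates IV held the same place, with 32.3 per Mb in replicate 1 and 31.6 per Mb in replicate 2. Of the combined list IV held 15.6% (interval 14.5% to 16.9%), while its span made up 17.4% of the summed spans. Along the ranks of the single replicates the share of IV was 16% in ranks 1 to 500 of replicate 1 and 15.2% in those of replicate 2. In the lowest ranks, 20001 to 30000, it was 17.2% in replicate 1 and 17.1% in replicate 2.

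By rank, IV was close to the rest of the list. Its members had a median rank of 1862.5, against 1826 on the other 5 chromosomes, and 13.8% of them ranked 1 to 500, against 13.6%. Ranks 1 to 100 held 21 members of IV, or 3.66% (interval 2.28% to 5.54%), against 2.55% of the regions elsewhere (interval 2.03% to 3.17%). These intervals overlap and the difference was not tested. The share was close to that of IV on I with 3.37% and III with 3.34%. It was lower on II with 2.66%, V with 1.12% and X with 0.939%.

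The strongest region of the whole list was on IV, at 4749792 to 4750352. It ranked 2 in replicate 1 and 1 in replicate 2. The next member was IV 654682 to 655173, which ranked 5 in the combined list, 7 in replicate 1 and 5 in replicate 2. Both stood near the very top of each sample. IV 11566094 to 11566528 had combined rank 14 and replicate ranks 16 and 15. IV 8432720 to 8433218 had combined rank 15 and replicate ranks 13 and 24. IV 1094119 to 1094588 had combined rank 22 and replicate ranks 27 and 20. All 5 thus ranked among the first 100 of each replicate.

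The next group lay mostly in the right part of the chromosome. IV 12371818 to 12372291 ranked 27 in the combined list, with 29 in replicate 1 and 30 in replicate 2. Its neighbour IV 12391057 to 12391529 ranked 32, with 40 and 23. Both lay in the same Mb of the chromosome. IV 13788580 to 13789048 ranked 34, with 31 and 36, and IV 13881689 to 13882180 ranked 41, with 36 and 47. The left part had IV 4445647 to 4446123 at rank 29, with 38 and 26. The centre had IV 7791160 to 7791626 at rank 49, with 43 and 58.

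The remaining 9 of the 20 highest ranked members were spread over the whole length. IV 16656217 to 16656657 had combined rank 57 and lay 95.2% along the span, with ranks 65 and 53 in the replicates. IV 5091100 to 5091557 had combined rank 62, with 57 and 70, and IV 393325 to 393810 had combined rank 73, with 70 and 87. The others were, by combined rank, IV 9706681 to 9707091, IV 6323645 to 6324107, IV 11149540 to 11149972, IV 13231356 to 13231786, IV 12268301 to 12268776 and IV 2495124 to 2495525, the last at rank 98. Among the 20, the worst rank was 112 in replicate 1 and 105 in replicate 2, and 10 of them ranked better in replicate 1 and 10 in replicate 2. From left to right, the successive stretches of 25% of the span held 4, 6, 6 and 4 of them.

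Recurrence was nearly complete by position. Of the 574 members, 573 were overlapped by at least 1 bp in both replicates, or 99.8% (interval 99.0% to 100.0%), against 99.2% of all 3669 regions. The exception was IV 3271398 to 3271767, at combined rank 3114. It had rank 1449 in replicate 1 and no overlapping peak in replicate 2, where the nearest peak lay 1659 bp away. The combined list is labelled as an output of IDR, which scores peaks by how reproducible their ranks are, so the making of the list may itself have set this share. A stricter measure was a rank within the first 3669 of both replicates, which 390 members had, or 67.9% (interval 64.0% to 71.7%), against 68.6% of all 3669 regions. Both shares lay close to those of the whole list, and neither is a result about IV.

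Recurrence by rank was lost at the weak end. The combined rank that sets the classes below may itself draw on both samples. All 79 members ranked 1 to 500 had such a rank in both samples, against 99.8% of such regions on the other 5 chromosomes. So did 84 of 85 in ranks 501 to 1000, against 99.8%, and 139 of 145 in ranks 1001 to 2000, against 94.9%. Of the 265 members with ranks from 2001, 88 did so, or 33.2% (interval 27.6% to 39.2%), against 34.4% of such regions on the other 5 chromosomes. Among these weakest members, replicate ranks reached 21420 in replicate 1 and 23737 in replicate 2. The plot of recurrence and width by rank shows the same step on IV and elsewhere.

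**Figure D1:**
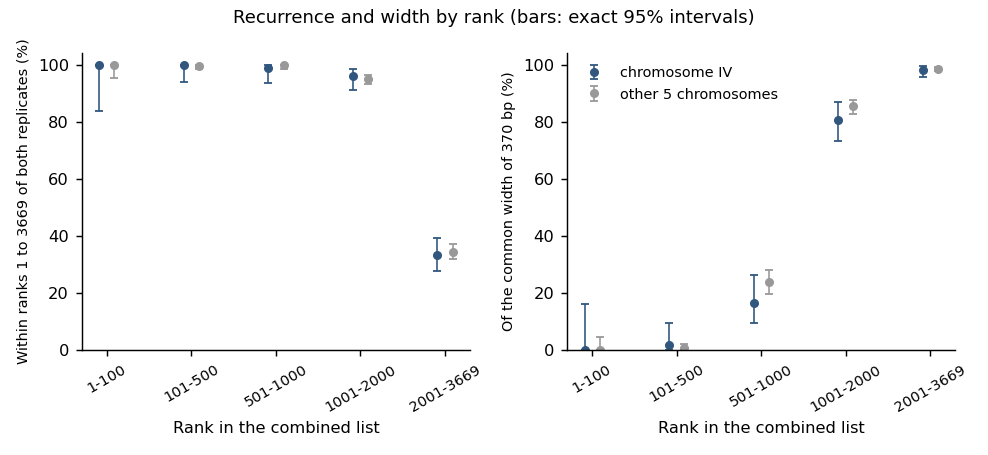
Share of regions within ranks 1 to 3669 of both replicates (left) and of the common width of 370 bp (right), in %, by rank in the combined list, for chromosome IV and the other 5 chromosomes, with exact 95% intervals. On IV the left share is 33.2% in the last class, and the right share is 98.1% there.

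Replicate ranks at the members rose together over the whole list but not within its weaker rank classes. Spearman's rho between the rank in replicate 1 and the rank in replicate 2 was 0.68 over the 573 members found in both, against 0.66 over 3067 such regions of the other chromosomes. For the 79 members ranked 1 to 500 it was 0.95, and for the 409 ranked 1001 to 3669 and found in both it was 0.23. Within narrower classes it was 0.88 for the 21 members ranked 1 to 100 and 0.88 for the 58 ranked 101 to 500. It was -0.12 for the 85 members ranked 501 to 1000, -0.14 for the 145 ranked 1001 to 2000 and -0.33 for the 264 ranked from 2001. In the same classes, in this order, the other 5 chromosomes had 0.89, 0.86, -0.08, -0.30 and -0.33. These are descriptions across peaks of the same 2 libraries, and peaks are not independent. The combined rank, which sorts the members into classes, may itself draw on both samples. The 2 ranks of a member differed by a median of 1.45 times on IV and 1.49 times elsewhere, and 71.6% of the members had ranks within 2 times of each other.

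A few members ranked far better in 1 sample than in the other. For 8 members, or 1.40%, the ranks differed by 10 times or more, against 0.815% on the other 5 chromosomes. The 5 with the largest difference were named. IV 1009602 to 1009971 ranked 20616 in replicate 1 and 1486 in replicate 2. IV 7022965 to 7023334 ranked 1024 in replicate 1 and 13109 in replicate 2. Both directions occurred, and no single sample was the weak one throughout. IV 16380978 to 16381347 ranked 2018 and 23737. IV 13503691 to 13504060 ranked 19797 and 1734, and IV 1751362 to 1751731 ranked 18905 and 1699. In the sample where it was weak, each of these 5 had a score between 0.159 and 0.501, far below the maxima of 3.58 in replicate 1 and 3.88 in replicate 2. All 5 nevertheless stood in the combined list with the width of 370 bp.

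**Figure D2:**
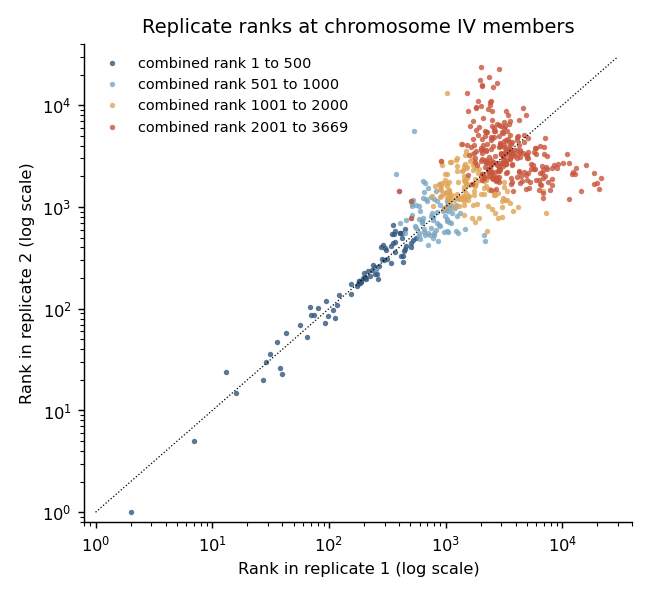
Rank in replicate 2 against rank in replicate 1 (both axes logarithmic) for the 573 chromosome IV members found in both, coloured by combined rank, with the line of equal rank dotted. Members ranked 1 to 500 follow the line, while those ranked from 2001 spread to ranks of 21420 in replicate 1 and 23737 in replicate 2.

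Replicate peaks lay nearest to the members at the strong end. The midpoint of the best overlapping replicate peak lay a median of 6.5 bp from the member's midpoint in replicate 1 and 9 bp in replicate 2 for ranks 1 to 500. For ranks 2001 to 3669 it was 23 bp in replicate 1 and 20 bp in replicate 2. The other 5 chromosomes were close to this, with 7 and 7.5 bp for ranks 1 to 500 and 22.5 and 21 bp for ranks 2001 to 3669. No member had exactly the coordinates of a replicate peak. The most frequent width was 380 bp in replicate 1, 356 bp in replicate 2 and 370 bp in the combined list. For peaks of these widths, equal coordinates were thus not possible.

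Width went with rank. The most frequent width, 370 bp, was found in 392 members, or 68.3%, against 71.1% of all 3669 regions. These 392 members had a median rank of 2409.5. The 33 wider members had a median rank of 81, none below 747, and the 149 narrower ones, down to 92 bp, had a median rank of 653. Only 1 of 79 members ranked 1 to 500 had the common width, or 1.27%, against 260 of 265 ranked from 2001, or 98.1%. On the other 5 chromosomes the shares were close to these, with 0.475% and 98.6%. The widest was IV 14824792 to 14825409 with 618 bp, at combined rank 113 and replicate ranks 118 and 108. Next came IV 4749792 to 4750352 with 561 bp, the strongest region, and IV 126112 to 126634 with 523 bp, at rank 167. IV 13353202 to 13353716, with 515 bp, had rank 373 in replicate 1 and 2124 in replicate 2, and IV 15570726 to 15571235, with 510 bp, had ranks 109 and 97. Of these 5 wide regions 4 were strong in both samples.

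Regions were sparsest at the right end of IV. From left to right, the successive stretches of 25% of the span held 175, 152, 154 and 93 members. The rightmost 25% thus had 16.2% of them (interval 13.3% to 19.5%) and 21.3 per Mb, against 30.5% (interval 26.7% to 34.4%) and 40.1 per Mb in the leftmost. In the first 3669 ranks, the rightmost 25% held 16.2% of the IV peaks of replicate 1 and 15.8% of those of replicate 2, and the leftmost 31.8% and 31.6%. The gap between the ends was thus far larger than that between the replicates. The fullest stretch held 1.88 times as many as the emptiest, and this ratio was 2.11 on V, 1.75 on III and between 1.30 and 1.43 on I, II and X.

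The whole lists of the single samples, most of which are weak peaks, were less uneven at the right end but not at the left. Their leftmost 25% held 30.2% of the IV peaks in replicate 1 and 31.2% in replicate 2, close to the combined list. In the whole lists the rightmost 25% held 23.7% of the 5100 IV peaks of replicate 1 (interval 22.6% to 24.9%) and 22.4% of the 5013 of replicate 2 (interval 21.3% to 23.6%). Both were above the 16.2% of the combined list, and the third stretch held fewer still, with 22.7% in replicate 1 and 22.2% in replicate 2. Of the 93 members in the rightmost 25%, 18 ranked 1 to 500, or 19.4%, against 14.3% of the 175 in the leftmost 25%. Read depth and mappability along IV were not analysed here, and their part in these shares was not tested.

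**Figure D3:**
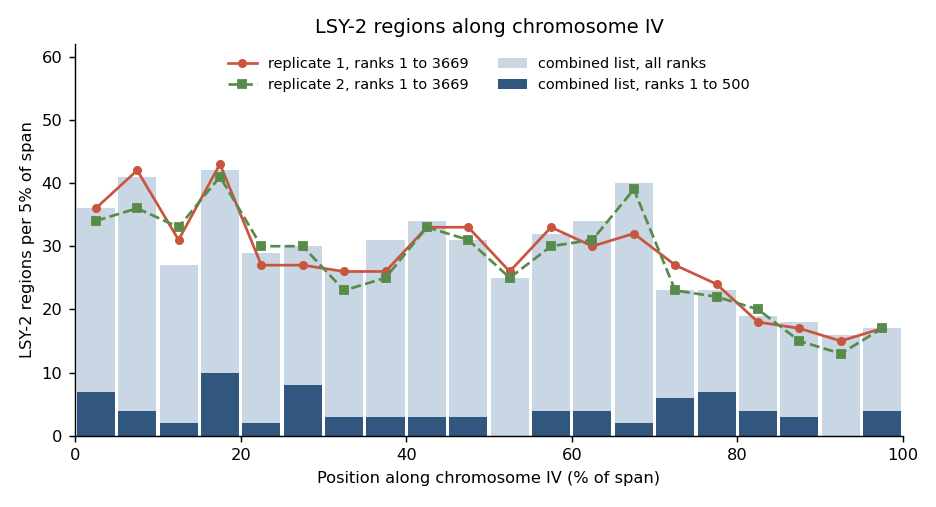
LSY-2 regions on chromosome IV per 5% of its span, from left to right, in the combined list (bars, with ranks 1 to 500 dark) and in ranks 1 to 3669 of each replicate (lines). The combined counts lie between 25 and 42 over the first 70% of the span and between 16 and 23 over the last 30%.

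**Figure D4:**
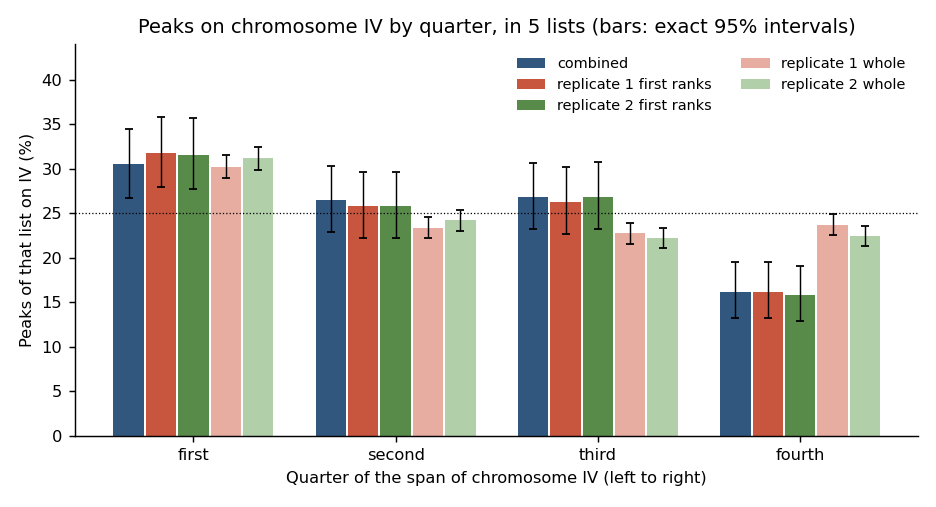
Share of the peaks of each list on chromosome IV, in %, in 4 successive stretches of 25% of its span, with exact 95% intervals and a dotted line at 25%. In the last stretch the combined list and the first 3669 ranks of each replicate stand at 15.8% to 16.2%, and the whole replicate lists at 22.4% and 23.7%.

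By whole Mb, the fullest bin was IV 11000001 to 12000000 with 50 members, with 39 peaks among the first 3669 ranks of replicate 1 and 46 of replicate 2. The next was IV 7000001 to 8000000 with 43 members, and 43 and 40 peaks in the replicates. The emptiest whole bin was IV 15000001 to 16000000 with 16 members, and 16 and 14 peaks. The order of the fullest bins differed between the samples, as replicate 1 had its highest count, 44, in IV 1000001 to 2000000. The emptiest whole bin was the same one in both.

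The strongest members were spread over centre and arms. The central 50% of the span held 53.3% of all members (interval 49.1% to 57.5%). Of the 79 members ranked 1 to 500, 36 lay there, or 45.6% (interval 34.3% to 57.2%), against 60.6% of the 421 regions of such rank on the other chromosomes (interval 55.7% to 65.3%). Among ranks 1 to 500 of the replicates' own lists the share on IV was 43.8% in replicate 1 and 46.1% in replicate 2, against 61.1% and 60.5% on the other chromosomes. Within ranks 1 to 500 of the combined list, 12 of the 21 members ranked 1 to 100 were central, or 57.1%, and 41.4% of the 58 ranked 101 to 500. On the other 5 chromosomes these shares were 63.3% and 59.9%. For ranks 1 to 500 of the combined list, the 4 other autosomes had 59.8% to 64.5% and X had 39.4%. The intervals of IV and the other chromosomes overlap slightly in the combined list and in replicate 2 but not in replicate 1. The pattern was noticed in these data, and the difference was not tested. Members ranked 1001 to 2000 were the most central class of IV, with 62.8% in the central 50% (interval 54.3% to 70.6%). Regions of such rank on the other 5 chromosomes had 51.6% there (interval 48.2% to 55.0%). In this class IV was thus the more central, the reverse of ranks 1 to 500. In ranks 501 to 1000 the shares were 56.5% on IV and 61.0% elsewhere, and from rank 2001 they were 49.4% and 49.0%. These differences were not tested either.

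**Figure D5:**
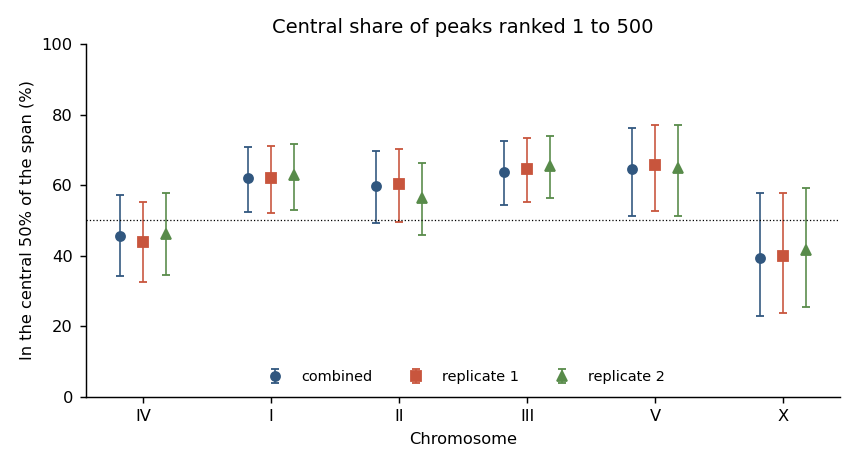
Share of peaks ranked 1 to 500 that lay in the central 50% of their chromosome, in %, with exact 95% intervals, in the combined list and in each replicate's own list, with a dotted line at 50%. Chromosome IV stands at 43.8% to 46.1% and the other 4 autosomes at 56.3% to 65.6%.

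The domains of the 21U-RNA genes were looked at in windows of whole Mb that lie inside them, IV 5 to 7 Mb and IV 14 to 17 Mb. The domain edges are background knowledge and were not read from an annotation of this build. The rest of IV, set beside the windows below, may thus include parts of the domains that lie outside the windows. The left window held 63 members, or 31.5 per Mb, and the right one 61, or 20.3 per Mb, against 36.2 per Mb on the rest of IV. In the first 3669 ranks the left window had 28.5 per Mb in each replicate, and the right one 19 per Mb in replicate 1 and 18.3 per Mb in replicate 2, against 36.1 and 35.3 on the rest of IV. The windows made up 28.7% of the span and held 21.6% of the members (interval 18.3% to 25.2%). In the whole lists they held 26.7% of the IV peaks of replicate 1 and 26.6% of those of replicate 2. The right window lies in the sparse right part of IV described above, and the 21U-RNA genes and the position on the arm cannot be told apart there.

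Spacing was uneven. Between neighbouring midpoints the distance had a median of 17094 bp and a mean of 30384 bp (SD 42562 bp, n = 573 distances). There were 37 distances under 1 kb and 29 over 100 kb, and the 29 made up 27.5% of the span. The nearest other midpoint lay a median of 6187 bp away (interval of the median from order statistics 5365 to 7284 bp), against 5739 bp on the other 5 chromosomes together. By this measure IV lay between V with 8703 bp and I with 5355 bp. Another member within 5 kb was found for 251 members, or 43.7% (interval 39.6% to 47.9%), against 45.9% of all 3669 regions. Windows of 50 kb held up to 9 members, and 95 of the 350 windows, or 27.1%, held none. On the other 5 chromosomes the empty share ran from 12.3% on III to 45.1% on V. The fullest window there held from 7 regions on V to 23 on III.

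The 3 longest gaps lay toward the right end. The first was 393 kb between IV 14071173 and IV 14464080, the second 364 kb between IV 15107528 and IV 15471487, and the third 327 kb between IV 15697070 and IV 16024111. All 3 lay within IV 14 to 17 Mb, as did 4 of the 5 longest, 5 of the 10 longest and 9 of the 29 over 100 kb. Their flanks were not uniformly weak, since the first lay between members of rank 459 and rank 222. None of the 3 was empty in the single samples. The first held 99 peaks of replicate 1 and 96 of replicate 2, of which 0 and 2 were within the first 3669 ranks. This came to 252 and 244 peaks per Mb, against 255 and 251 per Mb over all of IV for peaks that overlapped no member. The second held 64 and 58 peaks, or 176 and 159 per Mb, and the third 86 and 66, or 263 and 202 per Mb. The first gap was thus close to the chromosome's density of such peaks, the second was below it in both samples, and the third was above it in replicate 1 and below it in replicate 2.

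The fullest window was IV 4700001 to 4750000, with 9 members, and 8 and 9 peaks of the first 3669 ranks of the replicates. The midpoint of the strongest region lay just beyond its edge. From IV 4705202 to IV 4750352, a stretch of 45.2 kb, there were 10 members, of which 5 ranked 1 to 500. Beside the region of rank 1 these were IV 4725354 to 4725692 at rank 208, IV 4725721 to 4725858 at rank 254, IV 4727870 to 4728289 at rank 245 and IV 4745529 to 4745748 at rank 446. Each of these was within rank 503 in both replicates. The counts of 9 and 10 members include IV 4727870 to 4728289 2 times, as it was also listed at rank 747. With its 5 members ranked 1 to 500, the stretch held 6.33% of the strong members of IV. Not far to its right followed the fourth longest gap of IV, 279 kb between IV 4810640 and IV 5089715, which ended close to the member of rank 62.

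Of the other full windows, IV 850001 to 900000 held 7 members, and 10 and 6 peaks of the first ranks of the replicates. Windows with 6 members included IV 2600001 to 2650000, IV 3200001 to 3250000 and IV 4400001 to 4450000, the last with the member of rank 29. They differed in strength. The median rank was 656 in the window at 4700001, 1832 in the window at 850001 and 2247 in the window at 2600001.

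Some close neighbours shared 1 replicate peak. The interval IV 4727870 to 4728289 was listed 2 times, at ranks 245 and 747, so the 574 rows hold 573 distinct intervals. Over the whole list 8 rows repeated an interval in this way. The next closest pair was IV 9773561 to 9773766 at rank 657 and IV 9773673 to 9774042 at rank 3420, with midpoints 194 bp apart. The third was IV 15530376 to 15530745 at rank 1306 and IV 15530631 to 15530908 at rank 3017, with midpoints 209 bp apart. In each of these 3 pairs both members had the same best overlapping peak in replicate 1 and the same one in replicate 2. In all, 10 pairs of members overlapped each other. The better member of a pair with midpoints within 1 kb had a median rank of 880 and the worse one 2512. Sorting each pair into better and worse sets the direction of this difference in advance. Of the 37 pairs, which include the repeated interval, 3 had both ranks within 500.

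Joined wherever midpoints lay within 5 kb, the members formed 420 groups, of which 323 were single regions, 59 pairs, 25 triplets and 13 groups of 4 or more. The fullest groups had 6 members. One was IV 874725 to 885007, with ranks of 472 to 2559, and the other IV 9770719 to 9778418, with ranks of 657 to 3420. Among the 13 groups of 4 or more, the one with the best median rank, 254, was IV 4720581 to 4728289, and it includes the repeated interval. It was followed by IV 3050216 to 3056227 with a median of 332, whose 5 members had ranks 182, 195, 332, 1127 and 1678. The strong members alone are fewer, which widens their spacing by construction. For the 79 ranked 1 to 500 the nearest other such member lay a median of 57360 bp away, and 11 had one within 5 kb. A member of any rank lay within 5 kb of 35 of the 79, or 44.3%, close to the 43.7% of all members.

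Most peaks of the single samples on IV were not in the combined list. Of the 5100 of replicate 1, 661 overlapped a member, or 13.0%, and of the 5013 of replicate 2, 639, or 12.7%, against 14.36% and 13.96% on the other 5 chromosomes. All 80 IV peaks ranked 1 to 500 in replicate 1 and all 76 in replicate 2 did so. On the other 5 chromosomes 98.8% and 98.1% of the peaks of such rank did. Overlapping peaks of the 2 samples were also paired when each had the other as its closest midpoint. This gave 2082 pairs on IV, of which 1502 lay outside the combined list, or 72.1%, against 70.7% on the other 5 chromosomes. Those on IV had median ranks of 14178 in replicate 1 and 14503.5 in replicate 2. Only 5 of the pairs outside had ranks within 3669 in both samples. The highest of them was IV 8375404 to 8375783 in replicate 1, at rank 1741, and IV 8375452 to 8375807 in replicate 2, at rank 1144, a place named after its values were seen.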

How the data were processed

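Peak lists of 2 LSY-2 GFP ChIP samples and 1 combined list were analysed. Per the labels' protocols, embryos were fixed in 2% formaldehyde, quenched in 100 mM Tris, and 10% of the lysate was kept as input. Per the file headers, coordinates are in WS220 and the deposited score of each peak comes from SPP followed by IDR. Whether reads were pooled for the combined list, the aligner, the versions and the thresholds were not given in the sources used here. Scores have an unknown scale and were used only to describe peaks within a list. Separate cultures for the replicates are not named in the labels, so differences between them may be technical.

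The members and the regions to be named were chosen with earlier results of these data known. Named were the 20 highest ranked members, any missing in a replicate, the 5 with the largest rank difference, the 5 widest, the 5 fullest windows of 50 kb (of 7 windows tied at 6 members, the leftmost), the 3 longest gaps and the 3 closest pairs, while bins, groups of neighbours, the stretch around the strongest region and the fourth gap were named after their values were seen. Overlap was at least 1 bp, and where several replicate peaks overlapped, the one of best rank was used. Coordinates are 1-based, and windows and bins start at base 1. Overlaps, distances and merging were tested on simulated intervals. No test across samples was made. No WS220 genome or annotation was used, so regions carry no gene names. Tables were computed in Python 3.11.15 with pandas 2.3.3, numpy 2.4.6 and scipy 1.17.1, and plots drawn with matplotlib 3.10.9.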

Additional observations from a re-analysis of the deposited data

How the results depend on the processing

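Of 50 recomputed values of 14 results, 35 stayed within the exact 95% interval of the value reported (for the rank correlation, an approximate one) and 15 left it. The share of IV members found in both replicates was 82.1% at a reciprocal overlap of 50%, 92.9% with midpoints within 100 bp, 97.4% with the better 50% of each replicate list, and 99.8% to 100.0% with 1 replicate left out. The share within the first 3669 ranks was 50.5% at a reciprocal overlap of 50% and, without either replicate, 82.4% to 82.8%. At that overlap the rank correlation was 0.55. With the better 50% of the combined list, the median distance to the nearest neighbour was 16492.5 bp, the share within 5 kb of another 23.2% and the share of the common width 37.5%. The share within 2 kb of another was 25.8%, and 9.14% of windows of 100 kb were empty. These settings are stricter, keep fewer peaks, drop a condition or use wider windows by construction. The share of the rightmost 25% of IV in the whole lists, 23.7% and 22.4%, is an alternative chosen after seeing the data, as were those for the central share of ranks 1 to 500 (43.8% to 46.9%) and the repeated interval counted once (a median distance of 6242 bp, and 43.6% within 5 kb of another). No paired analysis was possible because the inputs, whose replicate numbers the ChIP samples share, were not analysed here. The read depth behind the weak peaks was not known.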
